A study of Mus musculus with 3 samples.

Results

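The let-7 and miR-98 family is a group of microRNAs with 9 members in this study: let-7a, let-7b, let-7c, let-7d, let-7e, let-7f, let-7g, let-7i and miR-98. Reads were assigned to a member when their first 20 bases equalled those of one of its mature arms, the 5p arm from the 5′ side of the hairpin or the 3p arm from its 3′ side. The family has 20 mature arms with distinct first 20 bases, 9 of them 5p and 11 of them 3p, on 12 hairpins, among 1621 such mouse arms listed in RefSeq. The sperm library held 124728 family reads among 15690722, testis 65894 among 23783785 and uterus 9486376 among 15876066. Of the 20 arms, 15 had at least 1 read in sperm, 13 in testis and 18 in uterus.

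All material came from CD1 mice, an outbred laboratory strain, with no further treatment or genotype given in the labels. The sperm were mature cells of the cauda epididymis, where sperm are stored, and were held in a detergent buffer meant to destroy somatic cells. Testis and uterus were adult whole organs, which mix many cell types. Each source had 1 library, and the number of animals behind it was not given, so the differences below lack a replicate check and were not tested. Intervals in parentheses are exact 95% intervals for counting error only, since reads copied by PCR are not independent molecules.

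MicroRNAs are cut from hairpin transcripts by the nucleases Drosha and Dicer, and one arm is loaded into an Argonaute protein, which it guides to messenger RNAs chiefly through the seed, bases 2 to 8. The let-7 family accumulates as cells differentiate, and its best known targets include Lin28, Hmga2 and Ras genes. Lin28 protein binds let-7 precursors and directs terminal uridylyltransferases to add U to them, while other nucleotidyltransferases add A or U to the 3′ ends of mature microRNAs.

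The 9 mature 5p arms are shown because the member mix rests on a few bases outside the seed, which is in capitals. All are 22 nt long in RefSeq (GRCm38.p6).
let-7a-5p: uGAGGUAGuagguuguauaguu
let-7b-5p: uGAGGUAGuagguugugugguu
let-7c-5p: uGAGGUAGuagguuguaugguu
let-7d-5p: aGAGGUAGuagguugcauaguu
let-7e-5p: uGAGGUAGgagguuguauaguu
let-7f-5p: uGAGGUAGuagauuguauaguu
let-7g-5p: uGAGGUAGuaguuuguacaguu
let-7i-5p: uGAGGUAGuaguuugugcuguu
miR-98-5p: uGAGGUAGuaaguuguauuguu

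The seed GAGGUAG is the same in all 9. Counted from 1 at the 5′ end, with the base of let-7a first, let-7c differs by A19G, let-7b by A17G and A19G, let-7e by U9G and let-7f by G12A. Both let-7d (U1A, U16C) and let-7g (G12U, U18C) differ at 2 positions, as does miR-98 (G11A, A19U). The farthest from let-7a is let-7i, with the 4 differences G12U, A17G, U18C and A19U. RefSeq lists 2 further mouse entries with this seed, let-7k and miR-1961, which are shorter than 20 bases and were kept out of the family. The let-7k sequence began 2 reads of sperm, 1 of testis and 628 of uterus, and none began with miR-1961.

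Mature reads do not show which hairpin they came from where copies share an arm. The genes of let-7a, let-7f and let-7c come in pairs: Mirlet7a-1 and Mirlet7a-2, Mirlet7f-1 and Mirlet7f-2, Mirlet7c-1 and Mirlet7c-2. Mirlet7d (chr13:48536012-48536114), Mirlet7f-1 (chr13:48537829-48537917) and Mirlet7a-1 (chr13:48538179-48538272) lie together on the minus strand in exons of the long noncoding RNA 6720427I07Rik. Mirlet7c-2 (chr15:85706603-85706697) and Mirlet7b (chr15:85707319-85707403) lie 621 bases apart in exons of Lncppara. Mirlet7f-2 (chrX:151912346-151912428) and Mir98 (chrX:151913214-151913321) lie 785 bases apart in introns of Huwe1, a ubiquitin ligase gene.

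The remaining hairpins lie apart from other family genes. Mirlet7g (chr9:106178840-106178927) is in an intron of Wdr82, and Mirlet7e (chr17:17830352-17830444) is in an intron of Spaca6, between Mir99b, 94 bases away, and Mir125a, 367 bases away. Mirlet7c-1 (chr16:77599657-77599750) is 656 bases from Mir99a in an intron of Mir99ahg. Mirlet7a-2 (chr9:41536716-41536811) is 5211 bases from Mir100, and Mirlet7i (chr10:122985640-122985724) lies on the minus strand in an exon of D630033A02Rik. Coordinates are those of GRCm38, with hosts from GENCODE M21 on the same strand.

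The family made up 0.795% of all reads in sperm (0.791 to 0.799%), 0.277% in testis (0.275 to 0.279%) and 59.8% in uterus (59.73 to 59.78%). Libraries also differed in how much of them was microRNA: 2.81% of the sperm library, 0.858% of testis and 76.2% of uterus. Among microRNA reads the family held 28.3% in sperm (28.15 to 28.42%), 32.3% in testis (32.10 to 32.50%) and 78.4% in uterus (78.39 to 78.43%). For each read of another microRNA the sperm library held 0.394 family reads, testis 0.477 and uterus 3.63. Sperm and testis were thus near each other on this scale, and uterus stood far above both. In bulk libraries, fewer cells of a type and less RNA per cell cannot be told apart.

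The microRNAs that mark cell types differed between the libraries as well. The summed level of 7 germ cell hairpins was 84565 reads per 1000000 microRNA reads in the sperm library, 447441 in testis and 460.5 in uterus, where 3 of the 7, Mir202, Mir465 and Mir881, had 0 reads. In testis most of that sum was Mir34c, at 410608, against 39288 in sperm. Mir184 (33650 against 2725) and Mir465 (8053 against 3069) were higher in sperm than in testis, and the rest were higher in testis. The 4 hairpins listed for smooth muscle summed to 45383 in the sperm library, 16269 in testis and 61474 in uterus, none at 0, but went different ways. Mir143, most of the sum in the sperm library, was highest there, at 40154 against 4392 (testis) and 10261 (uterus). Mir1a-1, Mir133a-1 and Mir145a were instead highest in uterus. Mir1a-1 had 4002 for sperm, against 10779 (testis) and 49425 (uterus). Mir133a-1 had 24.9 against 44.1 and 64.4, and Mir145a 1202 against 1054 and 1724. The 4 epithelial hairpins summed to 88268 in the sperm library, 88.2 in testis and 476.1 in uterus, with Mir141 at 0 in testis. The part of these lists in the results below was not tested. Leukocyte hairpins summed to 1095 (sperm), 156.9 (testis) and 199.1 (uterus), and none of the 4 was at 0. The single endothelial hairpin, Mir126a, had 376.4, 29.4 and 43.1 in the same order, and the 2 erythroid hairpins summed to 156.5, 152.0 and 96.5. These 2 went opposite ways: Mir451a was lowest in sperm (34.0, 147.1 and 91.5), while Mir144 was highest there (122.5, 4.90 and 4.96).

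Among 5p reads, 4 members, let-7a, let-7b, let-7c and let-7f, held 94.1% in sperm (93.9 to 94.2%), 85.2% in testis (85.0 to 85.5%) and 93.2% in uterus. The leading member was let-7c in sperm and uterus and let-7f in testis. The share of let-7c was 40.2% in sperm (39.9 to 40.5%), 25.3% in testis (24.96 to 25.6%) and 37.2% in uterus (37.17 to 37.23%). That of let-7f was 23.01% in sperm (22.8 to 23.2%), 35.3% in testis (34.96 to 35.7%) and 25.1% in uterus (25.12 to 25.17%). Sperm and uterus were therefore more alike in these members than either was to testis.

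The share of let-7a was 20.5% in sperm (20.3 to 20.7%), 15.3% in testis (15.1 to 15.6%) and 14.8% in uterus (14.74 to 14.78%). For let-7b it was 10.4% in sperm (10.2 to 10.5%), 9.29% in testis (9.07 to 9.51%) and 16.1% in uterus (16.04 to 16.09%). Each of these members thus stood out in a different library, let-7a in sperm and let-7b in uterus. Their ratios between libraries were 1.39 for let-7a in sperm over uterus (1.37 to 1.41) and 0.578 for let-7b in testis over uterus (0.564 to 0.593).

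**Figure D1:**
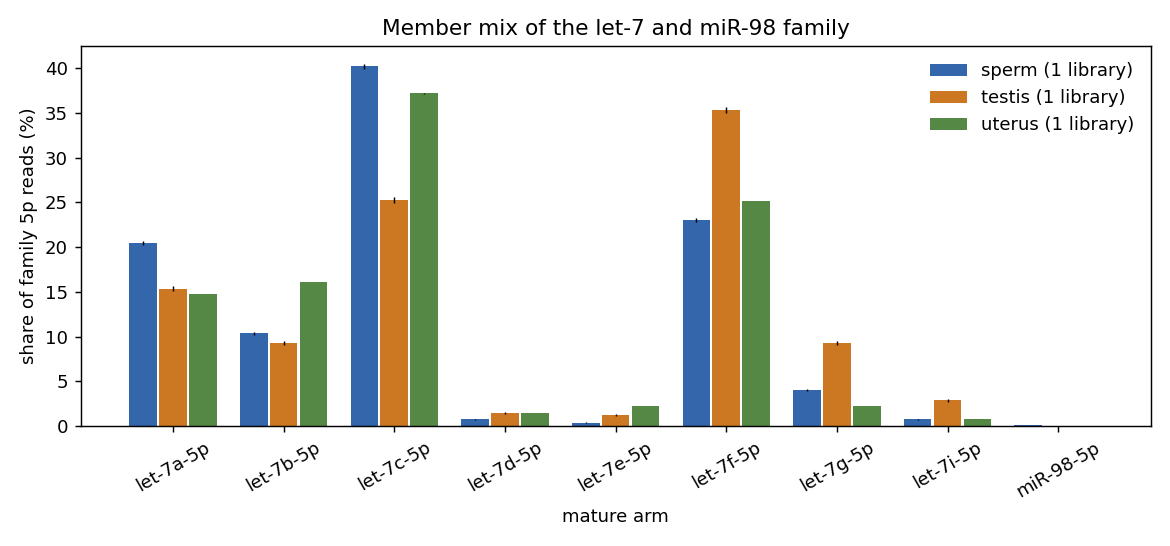
Share of each member among the 5p reads of the family (y axis, %) in the sperm, testis and uterus libraries, 1 library each, with exact 95% intervals for counting error as thin lines. In testis let-7f leads with 35.3% and let-7g reaches 9.22%, while let-7c leads in sperm with 40.2% and in uterus with 37.2%.

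The less abundant members set testis apart. The share of let-7g was 3.99% in sperm (3.88 to 4.10%), 9.22% in testis (9.002 to 9.45%) and 2.27% in uterus (2.26 to 2.28%). The share of let-7i, whose 5p arm is the one farthest from let-7a, was 0.726% in sperm (0.680 to 0.775%), 2.85% in testis (2.72 to 2.98%) and 0.793% in uterus (0.788 to 0.799%). Both were highest in testis. Relative to family 5p reads, let-7g was 4.07 times as high in testis as in uterus (3.97 to 4.17) and let-7i 3.59 times (3.43 to 3.76). The ratio of let-7i in sperm over testis was 0.255 (0.235 to 0.276).

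The members let-7d, let-7e and miR-98 held a few percent or less in every library, and let-7e and let-7d were lowest in sperm. The share of let-7e, from the hairpin beside Mir125a, was 0.385% in sperm (0.351 to 0.421%), 1.24% in testis (1.15 to 1.32%) and 2.25% in uterus (2.24 to 2.26%). For let-7d it was 0.767% in sperm (0.719 to 0.817%), 1.43% in testis (1.34 to 1.53%) and 1.49% in uterus (1.48 to 1.4996%). On this scale the ratio of sperm to uterus was 0.171 for let-7e (0.156 to 0.187) and 0.514 for let-7d (0.482 to 0.548). Testis and uterus could not be told apart in let-7d at this depth, with a ratio of 0.961 (0.901 to 1.02).

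The rarest member was miR-98, which had 101 reads in the sperm library, 9 in testis and 1865 in uterus. Its share of family 5p reads was 0.0810% in sperm (0.0660 to 0.0984%), 0.0137% in testis (0.00625 to 0.0259%) and 0.0197% in uterus (0.0188 to 0.0206%). Sperm was highest, at 4.12 times the share in uterus (3.34 to 5.04) and 5.93 times that in testis (3.003 to 13.3). The intervals of testis and uterus overlapped. Its neighbour in the same introns of Huwe1, Mirlet7f-2, shares its mature 5p arm with Mirlet7f-1, so the pair could not be compared hairpin by hairpin.

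Levels per 1000000 microRNA reads give the same members against all other microRNAs. For let-7c-5p the level was 113634 for sperm, 81684 for testis and 291668 for uterus. For let-7f-5p it was 65038 in sperm, 114075 in testis and 197160 in uterus. On this scale 6 of the 9 members were highest in uterus. The others were let-7g-5p, with 11273 in sperm, 29783 in testis and 17769 in uterus, let-7i-5p, with 2052, 9201 and 6219 in the same order, and miR-98-5p, with 229.0, 44.1 and 154.1. The order of these 3 turned with the scale. The log2 ratio of testis over uterus for let-7g-5p was 0.75 on microRNA reads but -0.61 with DESeq2 size factors, -0.90 with microRNA reads outside the family, -1.89 with TMM factors and -5.73 with all reads. For let-7i-5p it went from 0.57 to -0.79, -1.08, -2.07 and -5.91 in the same order. For miR-98-5p the log2 ratio of sperm over uterus went from 0.57 to -0.73, -1.16, -1.40 and -4.19.

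An arm counted as apart between libraries when its levels per 1000000 microRNA reads differed at least 4-fold and the higher one rested on 100 reads or more. Between sperm and testis 2 of 9 family arms were apart. Higher in sperm was miR-98-5p at 5.19-fold (2.63 to 11.7), while 34.2% of all 117 arms tested were called in that direction. Higher in testis was let-7i-5p at 4.48-fold, while 23.1% of all arms were. With TMM factors let-7i-5p no longer passed, which left 1 arm, higher in sperm, where 40.3% of 119 arms were called, and none higher in testis, where 16.8% were. With all reads as the denominator 2 arms were apart, both higher in sperm, beside 50.4% of 119 arms. The median log2 ratio of sperm over testis was -0.81 over the 9 family 5p arms and 0.48 over all 117 arms.

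Between sperm and uterus 3 of 9 family arms were apart, all higher in uterus, where 23% of all 165 arms were called, and none was higher in sperm, where 35.8% were. They were let-7e-5p at 16.2-fold, let-7d-5p at 5.40-fold and let-7b-5p at 4.30-fold. Between testis and uterus 2 of 10 family arms were apart, again higher in uterus, beside 14.6% of 144 arms. They were let-7e-5p at 4.42-fold and let-7b-5p at 4.199-fold. None was higher in testis, beside 27.8% of all arms. The median log2 ratio over family 5p arms was -1.60 for sperm over uterus, beside -0.02 over all arms, and -1.34 for testis over uterus, beside -0.16.

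These counts changed with the denominator. With microRNA reads outside the family as the denominator, an alternative added after the data were seen, 8 of 10 family arms were at least 4-fold higher in uterus than in sperm, beside 40.8% of 184 arms, and 7 of 10 higher than in testis, beside 38.7% of 173. With TMM factors they were 8 of 10 against sperm, beside 44.6% of 184 arms, and 9 of 10 against testis, beside 52.6% of 192. With DESeq2 size factors they were 7 of 9 against sperm, beside 37.6% of 178 arms, and 7 of 10 against testis, beside 34.5% of 171. With all reads as the denominator they were 10 of 10 in both comparisons, beside 68.1% of 204 arms for sperm and 85.2% of 203 arms for testis. On these scales, in the order given, no family arm was called higher in sperm than in uterus, beside 25.5%, 23.4%, 28.1% and 12.3% of all arms, or higher in testis, beside 18.5%, 15.1%, 19.3% and 10.8%. The shares within the family, given above, do not depend on this choice.

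Of the neighbours of family genes, miR-99a-5p, from the hairpin beside Mirlet7c-1, had 1032 reads per 1000000 microRNA reads in the sperm library, 769.6 in testis and 778.3 in uterus. For miR-125a-5p, encoded beside Mirlet7e, the level was 508.0 in sperm, 220.6 in testis and 610.2 in uterus. The ratio of sperm to uterus was 0.832 for miR-125a-5p (0.726 to 0.951), while for let-7e-5p, its neighbour, it was 0.0616 (0.0562 to 0.0674). For miR-99b-5p, on the other side of Mirlet7e, the level was 1547 (sperm), 1108 (testis) and 786.7 (uterus). On this scale it was thus highest where let-7e-5p was lowest, but the order turned with the scale. Its log2 ratio of sperm over uterus was 0.98 here and -3.79 with all reads. With microRNA reads outside the family as the denominator, every such ratio shifts by -1.73. That turns the sign for miR-99b-5p, miR-99a-5p (0.41 here), miR-100-5p (1.51) and miR-125b-5p (0.23), while miR-125a-5p (-0.26) keeps its sign. For miR-100-5p, beside Mirlet7a-2, the level was 505.7 in sperm, 529.4 in testis and 178.1 in uterus. Thus miR-125a-5p was lowest in testis, while let-7e-5p was lowest in sperm. A relative of miR-125a, miR-125b-5p, had 1993, 661.7 and 1696 in sperm, testis and uterus.

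A sequencing error could turn one member into another, since several differ by 1 base. Estimated from the reads with the other wrong bases at the same position, such reads made up at most 0.368% of the receiving member in every pair examined, except let-7a-5p to let-7e-5p in sperm. There 14 reads, or 2.92% of the 480 let-7e-5p reads, could have this source.

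Most 5p reads of every library were 22 nt long, the length of the mature arms in RefSeq. The 22 nt share was 59.2% in sperm (58.9 to 59.5%), 67.4% in testis (67.0 to 67.7%) and 67.4% in uterus (67.39 to 67.45%). Reads of 23 nt held 15.0% in sperm, 18.3% in testis and 20.2% in uterus, while reads of 24 nt held 2.62%, 3.03% and 3.91%. On the short side, 21 nt reads held 16.9% in sperm, 7.36% in testis and 6.55% in uterus, while 20 nt reads held 5.12%, 2.89% and 1.01%. Sperm thus had the largest share of short forms. Reads over 22 nt were least frequent in sperm for all members together, at 18.8% beside 22.4% and 25.01% in testis and uterus, and for let-7a, let-7b, let-7c and let-7f. They were most frequent in sperm for let-7d, let-7e, let-7g, let-7i and miR-98, with 28.5% for let-7g-5p beside 9.38% and 8.51%. For let-7d-5p sperm and testis were close, at 23.6% of 956 reads and 23.2% of 945. For let-7e-5p the shares were 36.25% of 480 reads in sperm, 32.4% of 815 in testis and 34.9% in uterus. The order of libraries in let-7d and let-7e rests on small differences, and the order was not tested for any member.

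Reads of 20 or 21 nt together made up 22.1% of family 5p reads in the sperm library, 10.2% of those in testis and 7.56% of those in uterus. By member, let-7g-5p was the least affected in sperm, with 10.4%. There the share was 26.9% for let-7a-5p, 27.9% for let-7d-5p and 43.6% for the 101 reads of miR-98-5p. The share was highest in sperm for all 8 members with at least 100 reads in each library, and in sperm for miR-98-5p as well, where testis had 9 reads. Among 44 other microRNA arms with at least 100 reads in each library, 22 had their largest share of reads shorter than annotated in sperm. For the 8 family arms the median shares of such reads were 23.2% (sperm), 9.95% (testis) and 7.91% (uterus), and for the 44 others 16.9%, 7.42% and 19.3%. The match of 20 bases leaves shorter reads out. Reads of 18 or 19 nt that match the family came to 0.0706 and 0.276 per 100 family 5p reads in the sperm library, 0.243 and 0.146 in that of testis, and 0.120 and 0.479 in that of uterus.

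**Figure D2:**
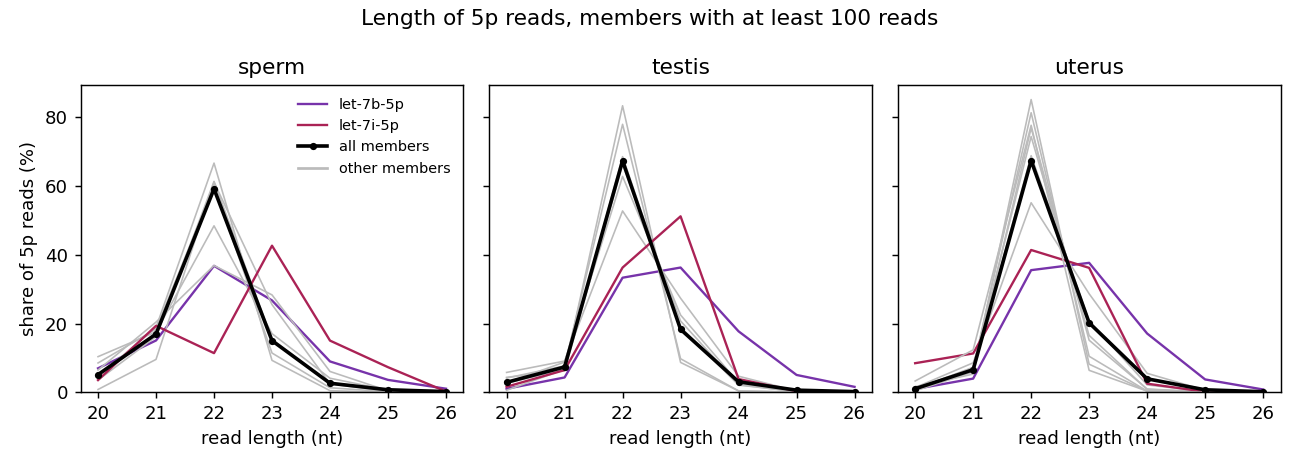
Length of 5p reads (x axis, nt) against the share of reads of that length (y axis, %) in each library. All members together are in black, and single members with at least 100 reads of the lengths drawn are in colour or grey. All members together peak at 22 nt, at 59.2% in sperm, 67.4% in testis and 67.4% in uterus. The peak of let-7i-5p is at 23 nt in sperm and testis, and that of let-7b-5p at 23 nt in testis and uterus.

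Each 5p read was placed in 1 of 4 forms by its longest match, from the 5′ end, to a hairpin of its own member. Shorter reads that matched throughout were called trimmed, whole matches of 22 nt canonical, and longer whole matches extended. Reads that ended in bases the hairpin does not hold were called reads with added bases. A sequencing error past base 20 was scored in this way too and was not separated. For the family, trimmed reads made up 21.1% (sperm), 10.1% (testis) and 7.48% (uterus), while canonical reads made up 57.9%, 66.7% and 66.6%. Extended reads made up 10.4% in sperm, 11.6% in testis and 10.95% in uterus. Behind these near totals the members went different ways: extended reads of let-7g-5p made up 20.9% in sperm, 4.89% in testis and 2.72% in uterus, while those of let-7a-5p 7.90%, 15.6% and 9.59%.

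**Figure D3:**
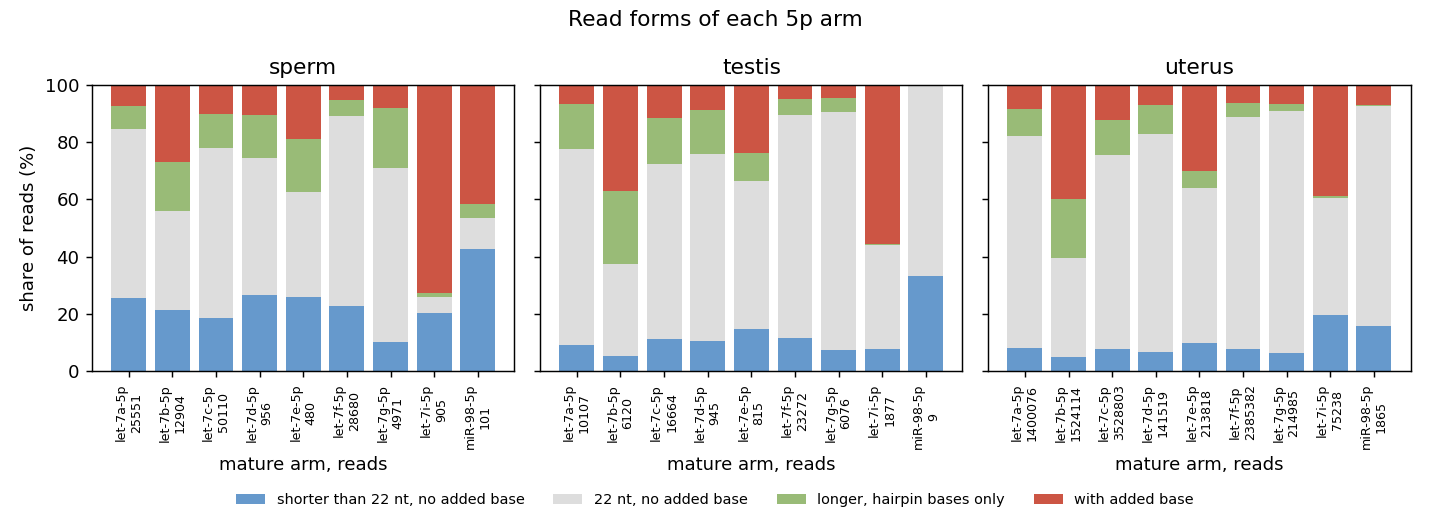
Share of reads in 4 forms (y axis, %) for each 5p arm in each library, with the number of reads under each arm. Added bases (top, red) are most frequent in let-7i-5p, at 72.7% in sperm, and in let-7b-5p, at 39.8% in uterus. The miR-98-5p bar in testis rests on 9 reads.

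Whether a base counts as added depends on what the hairpin encodes after base 22, so the first 28 bases from the 5p start are shown for the members with most added bases and for let-7g, with hairpin bases 23 to 28 in capitals (RefSeq, GRCm38.p6).
Mirlet7b: ugagguaguagguugugugguuUCAGGG
Mirlet7e: ugagguaggagguuguauaguuGAGGAA
Mirlet7g: ugagguaguaguuuguacaguuUGAGGG
Mirlet7i: ugagguaguaguuugugcuguuGGUCGG
Mir98: ugagguaguaaguuguauuguuGUGGGG

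Base 23 of the hairpin is U in let-7a, let-7b, let-7c, let-7d and let-7g and in Mirlet7f-2. It is G in let-7e, let-7i, miR-98 and Mirlet7f-1. In the first set a single U after base 22 was counted as extension and cannot be told apart from an added U. Every mature 5p arm of the family ends in UU. A U added to a read that lacked these last bases was therefore scored as a hairpin base too. No family hairpin has A at base 23, so an A there was always scored as an added base.

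Reads with added bases made up 10.6% of family 5p reads in sperm (10.5 to 10.8%), 11.7% in testis (11.4 to 11.9%) and 15.0% in uterus (14.96 to 15.01%). The commonest single tail was 1 A, which accounted for 54.9% of the reads with added bases in sperm, 52.0% in testis and 61.3% in uterus. The next tails were AU, AA and U in sperm, U, AU and AA in testis, and AA, AU and U in uterus. Tails made only of A were found on 7.15% of the 5p reads of sperm (7.01 to 7.30%), 7.16% in testis (6.97 to 7.36%) and 11.1% in uterus (11.09 to 11.13%). Tails made only of U were found on 0.776% in sperm (0.728 to 0.826%), 2.60% in testis (2.48 to 2.72%) and 1.42% in uterus (1.41 to 1.43%). Uterus was thus highest in A tails, and testis in those U tails that could be told from hairpin bases.

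These totals mix members in unequal shares, and the members differed widely. Over the 8 members with at least 100 reads in each library, the median share of reads with added bases was 10.3% in all 3 libraries. Among the 44 other arms that met this minimum the medians were 11.7% for sperm, 19.03% for testis and 16.3% for uterus. For U tails the medians of the 8 family arms were 0.628%, 0.210% and 0.0809%, against 3.59%, 8.67% and 5.38% for the others. Most of these family arms have a hairpin with U right after the mature arm, where an added U was scored as extension. How many of the other arms share this was not counted. The medians therefore cannot decide whether the family carries fewer added U than other microRNAs.

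Added bases were most frequent on let-7i-5p in sperm and testis, and on let-7b-5p, closely followed by let-7i-5p, in uterus. Added bases were found on 72.7% of its 905 reads in sperm (69.7 to 75.6%), 55.5% of 1877 in testis (53.2 to 57.8%) and 38.9% of 75238 in uterus (38.6 to 39.3%). The kind of base differed between the libraries. A tails were found on 38.7% of its reads in sperm (35.5 to 41.9%), 8.15% in testis (6.95 to 9.48%) and 9.56% in uterus (9.36 to 9.78%). U tails were found on 21.3% in sperm (18.7 to 24.1%), 46.0% in testis (43.7 to 48.3%) and 28.4% in uterus (28.1 to 28.7%). In sperm A tails were the more frequent, and in testis and uterus U tails were.

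The leading reads of let-7i-5p are shown with added bases in capitals, because the leading form was not the canonical one in sperm and testis.
let-7i-5p with 1 U: ugagguaguaguuugugcuguuU
let-7i-5p with 1 A: ugagguaguaguuugugcuguuA
let-7i-5p with 2 A after base 21: ugagguaguaguuugugcuguAA
let-7i-5p trimmed to 21 nt: ugagguaguaguuugugcugu
let-7i-5p canonical: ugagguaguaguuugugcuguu

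The form with 1 U was the leading form in sperm, with 154 reads, and in testis, with 808, and was the second form in uterus, with 20288. For the canonical form 49 reads were counted in the sperm library, 678 in testis and 30791 in uterus. The form with 1 A had 122, 127 and 5582 reads in the same order, and the trimmed form 152, 117 and 8421. In sperm the canonical form held 5.41% of let-7i-5p reads (4.03 to 7.10%). In testis it held 36.1% (33.9 to 38.3%) and in uterus 40.9% (40.6 to 41.3%). The form with 2 A after base 21 had 58 reads in sperm, more than the canonical form.

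For let-7b-5p, reads with added bases made up 26.9% in sperm (26.2 to 27.7%), 37.1% in testis (35.9 to 38.3%) and 39.8% in uterus (39.75 to 39.91%). A tails were found on 12.8% of its reads in the sperm library, 14.8% in testis and 24.9% in uterus. U tails, which here follow the U at base 23 or replace a hairpin base elsewhere, were found on 4.06% in sperm, 10.8% in testis and 4.71% in uterus. Extended reads of the same arm made up 17.0% in sperm, 25.3% in testis and 20.8% in uterus. It was lowest in sperm in added bases, the opposite order to let-7i-5p.

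For let-7e-5p, reads with added bases made up 18.8% in sperm (15.4 to 22.5%), 23.9% in testis (21.03 to 27.01%) and 30.04% in uterus (29.8 to 30.2%). U tails were the more frequent kind in every library, at 8.96% in sperm (6.56 to 11.9%), 16.1% in testis (13.6 to 18.8%) and 17.8% in uterus (17.7 to 17.98%). Among its 23 nt reads that kept the first 22 bases, the hairpin base G was at the end of 58.4% in sperm (49.2 to 67.1%), 31.9% in testis (25.8 to 38.6%) and 19.3% in uterus (19.03 to 19.7%). U was at the end of 28.8% in sperm (21.1 to 37.6%), 50.9% in testis (44.1 to 57.8%) and 54.3% in uterus (53.9 to 54.7%). The hairpin base was thus the more frequent end in sperm, and U in testis and uterus.

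For miR-98-5p the reads with added bases were 41.6% of 101 in sperm (31.9 to 51.8%) and 7.13% of 1865 in uterus (6.005 to 8.39%), and there were 0 among the 9 reads of testis, which allows up to 33.6%. The leading form in sperm was the 21 nt form, with 41 reads, and in uterus the canonical form, with 1437. The share of reads with added bases was highest in sperm for let-7d, let-7g, let-7i and miR-98, and in uterus for let-7a, let-7b, let-7c, let-7e and let-7f. The intervals of sperm and testis overlapped for miR-98 and for let-7d (8.78 to 12.8% and 7.15 to 10.9%). For let-7c those of testis (11.2 to 12.21%) and uterus (12.18 to 12.25%) overlapped. Both let-7i and miR-98 carry A19U relative to let-7a and have G at hairpin base 23. Neither let-7d nor let-7g has these features. With G at base 23 as well, let-7e had fewer added bases in sperm (18.8%) than in uterus (30.04%). A link to these bases was not tested.

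**Figure D4:**
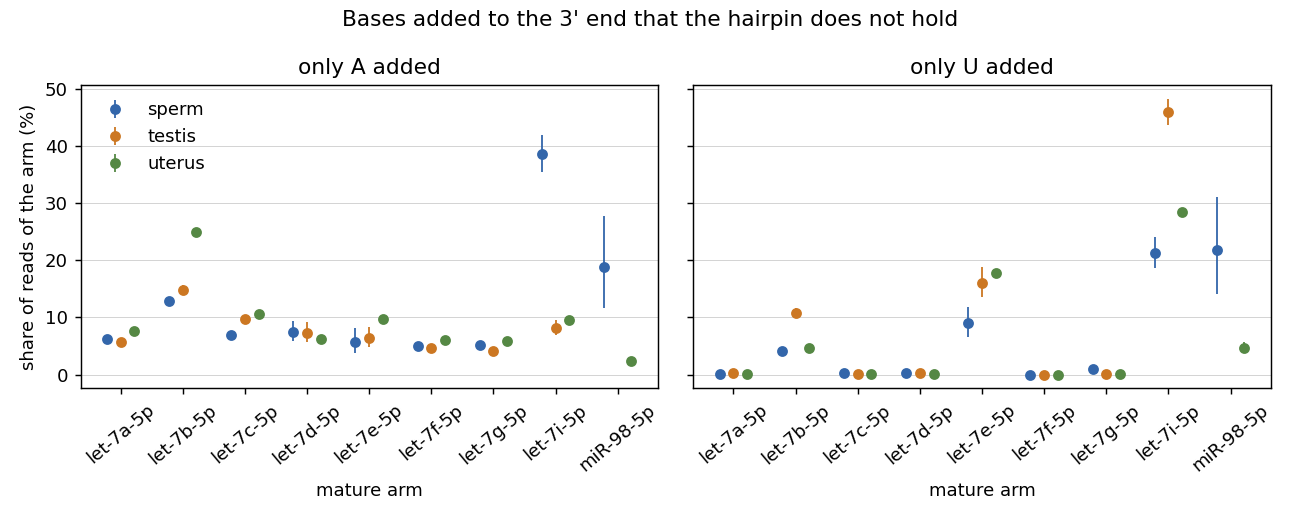
Share of reads of each 5p arm that end in added A only (left) or added U only (right; y axes, %), with exact 95% intervals for counting error, for arms with at least 100 reads in a library. For let-7i-5p, A tails reach 38.7% in sperm and U tails 46.0% in testis, and for let-7b-5p A tails reach 24.9% in uterus.

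The other members carried fewer added bases. For let-7c-5p the share was 10.03% in sperm, 11.7% in testis and 12.2% in uterus. The lowest shares were those of let-7f-5p in sperm, at 5.43%, and in uterus, at 6.21%, and that of let-7g-5p in testis, at 4.66%, leaving aside miR-98-5p with its 9 reads there. Among the 23 nt reads of let-7g-5p that kept the first 22 bases, U, the hairpin base, ended 82.5% in sperm, 54.6% in testis and 33.7% in uterus, while A ended 16.2%, 44.04% and 62.6%. Per 100 canonical reads of let-7g-5p, the sperm library held 6.73 reads with A at base 23, testis 4.53 and uterus 5.97, while those with U were 34.2, 5.62 and 3.21. The libraries thus differed in the reads with the hairpin base far more than in those with A.

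Nearly all 5p reads that matched a hairpin throughout began at the annotated base. Starts up to 3 bases away made up 0.328% in sperm (0.295 to 0.363%), 0.232% in testis (0.195 to 0.274%) and 0.187% in uterus (0.184 to 0.190%). Such reads would carry another seed. Elsewhere on the family hairpins 19 reads of sperm, 0 of testis and 71 of uterus were found.

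The 3p arm was rare in every library, at 70 reads in the sperm library, 9 in testis and 576 in uterus. The ratio of 5p to 3p reads was 1781 in sperm (1409 to 2285), 7321 in testis (3856 to 16010) and 16468 in uterus (15177 to 17901). The interval of sperm lay below the others, and those of testis and uterus overlapped. Without sequences read only once the ratio in testis was 16427. Of other hairpins with both arms listed and at least 1000 reads, a lower share of the minor arm than in the family was found for 19 of 35 in sperm, 6 of 13 in testis and 9 of 77 in uterus. In testis all of those below the family had 0 reads of the minor arm, and in sperm most had. Depth thus limits these counts, and some hairpins share an arm. They cannot decide whether the family differs from other hairpins.

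Most 3p reads came from let-7d, whose 3p arm had 48 of the 70 in sperm, 6 of the 9 in testis and 416 of the 576 in uterus. It is shown with bases 2 to 8 in capitals, since it is the only 3p arm of the family with at least 100 reads in a library.
let-7d-3p: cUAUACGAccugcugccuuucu

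The ratio of 5p to 3p reads for let-7d was 19.9 in sperm (14.9 to 27.2), 157.5 in testis (72.1 to 430.3) and 340.2 in uterus (309.0 to 375.5). The 3p arm thus held 4.78% of let-7d reads in sperm (3.55 to 6.29%), 0.631% in testis (0.232 to 1.37%) and 0.293% in uterus (0.266 to 0.323%). Sperm was the highest, and the intervals of testis and uterus overlapped. This ratio does not depend on the denominator. Both arms come from the single hairpin Mirlet7d.

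In uterus the 3p share of miR-98 was above that of let-7d, with a ratio of 5p to 3p reads of 133.2 (79.2 to 244.1). It rests on 14 reads of the 3p arm, and in sperm and testis miR-98 had 0 such reads. The ratio of 5p to 3p reads was 69278 for let-7b in uterus (45758 to 110545) and 6479 for let-7e there (4614 to 9413). No 3p read of let-7g was found in any library, which in uterus, with 3 counts in place of 0, puts the ratio at 71662 at the least. The let-7f-2 3p arm also had 0 reads in all libraries. The 3p arms of Mirlet7a-1 and Mirlet7c-2 begin with the same 20 bases and could not be separated, and together they had 12 reads in the sperm library, 0 in testis and 42 in uterus.

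**Figure D5:**
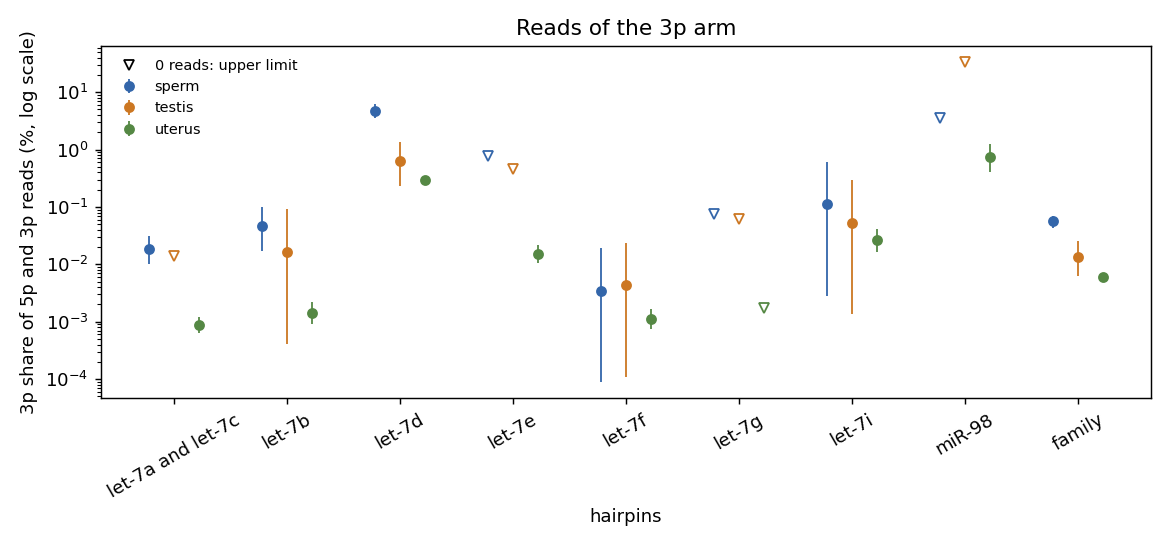
Share of 3p reads among 5p and 3p reads (y axis, %, log scale) for each hairpin or group of hairpins, with exact 95% intervals for counting error, and open triangles at the upper limit where no 3p read was found. The share for let-7d is 4.78% in sperm, 0.631% in testis and 0.293% in uterus, while that of the whole family is at 0.0561%, 0.0137% and 0.00607%.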

How the data were processed

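The deposited files list distinct reads of 18 to 44 nt with their raw counts, and the authors ligated adapters to small RNA, reverse transcribed, amplified and sequenced it, per the labels' protocols. The submitters' processing notes name mm9, and adapter trimming was not given in the sources used here. Depth was 15690722 to 23783785 reads. Groups follow the source in the labels. The family, lists and tests were chosen with earlier results of these data known. MicroRNA reads began with the first 20 bases of a RefSeq arm (GRCm38.p6; 9 arms with over 50% of reads above 26 nt were left out) or were reads of 20 to 24 nt lying whole on another GENCODE M21 hairpin. This denominator was set after the files were seen, and marker arms were measured by hairpin. Named were all 9 members by their 5p arm, 3p arms with at least 100 reads, the leading read forms, A and U tails, 5 listed neighbours and arms that share the seed. Shares have Clopper-Pearson intervals, ratios conditional binomial ones, and a count of 0 was taken as 3. With 1 library per source no p-value was computed. Alternatives changed match length, substitutions, denominators, count minimum, lengths, single reads and hairpin choice. Scripts, tested on simulated data, used Python 3.11.15, pandas 2.3.3, scipy 1.17.1, and, for TMM and size factors, edgeR 4.0.16 and DESeq2 1.42.0 in R 4.3.3.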

Additional observations from a re-analysis of the deposited data

How the results depend on the processing

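No paired analysis was possible because each source had 1 library, which also left no replicate to leave out. The share of let-7 family reads moved with 18 matched bases to 0.802% in sperm and 60.3% in uterus, with 1 substitution allowed to 0.817% (sperm), 0.282% (testis) and 60.5% (uterus), and with microRNA reads as the denominator to 28.3%, 32.3% and 78.4%. Family arms at least 4-fold apart between sperm and testis numbered 1 with TMM factors, against 2. Between sperm and uterus, against 3 as reported, they numbered 10 with all reads, 8 with TMM and 7 with DESeq2. With microRNA reads outside the family (added after the data were seen) they numbered 8. With more than 3 reads in place of 100 as the count minimum, 5 of 14 arms tested were apart. Of these 5, 2 were 3p arms higher in sperm, resting on 12 and 6 sperm reads. No share over all arms was computed for that setting. Between testis and uterus the family arms apart numbered 10, 9, 7 and 7 with the same denominators, against 2. The shares of all arms called higher in uterus beside them were 68.1%, 44.6%, 37.6% and 40.8% against sperm, and 85.2%, 52.6%, 34.5% and 38.7% against testis. With reads of 20 to 24 nt the share of let-7c-5p in uterus was 37.4%, and reads with added bases made up 9.70% in sperm, 10.9% in testis and 14.2% in uterus. Among reads that matched the hairpin throughout, 22 nt reads made up 64.7%, 75.5% and 78.3%. The ratio of 5p to 3p reads was 2290 in sperm with starts within 3 bases and 16427 in testis without sequences of a single read. Of 38 log2 ratios of single arms under 5 other denominators, 43 of 190 values stayed within counting error. The sign turned in 48 of the 190: 15 of 38 with all reads, 10 with TMM, 7 with DESeq2, 9 with reads outside the family and 7 with family 5p reads. Among ratios of 4-fold or more as reported, 2 turned sign, both with all reads for sperm over uterus: the shared 3p arm of let-7a-1 and let-7c-2 (-1.79) and let-7b-3p (-1.86). The denominator moved every log2 ratio of sperm over uterus by -4.76 with all reads, -1.98 with TMM, -1.30 with DESeq2, -1.73 with reads outside the family and 1.47 with family 5p reads, which was added after the data were seen. Depth limits miR-98 in testis (9 reads) and every 3p arm but let-7d-3p in uterus.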

Other observations

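Reads with exactly 1 substitution in the first 20 bases came to 3396 in the sperm library, 1114 in testis and 116071 in uterus, which is 2.65%, 1.66% and 1.21% of these and the exact reads together. In uterus some of them combined bases of different members. The let-7c-5p sequence with the base of let-7f at position 12 had 5943 reads, against 1512 and 186 for the other wrong bases there. With the base of let-7e at position 9 it had 2811 reads, against 798 and 202. In testis the first of these forms had 27 reads, against 10 and 1, and in sperm 21 against 10 and 6. The second had 11 reads in testis, against 5 and 5, and in sperm 27, against 33 and 26, so it did not stand out there.

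Among reads of the 3p arms that matched a hairpin throughout, miR-98-3p in uterus began 1 base after the annotated start in 23 reads and at the annotated start in 11. For let-7d-3p the later start had 47 reads and the annotated start 365 in uterus, and 4 and 39 in sperm. These were chosen after their values were seen.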
